A study of Mus musculus with 12 samples.

Results

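The 32 genes described here carry out, regulate or store the products of fatty acid and triglyceride synthesis. They were taken by symbol from the 56748 genes of the deposited count table, all 32 were found, and 29 had enough counts to be tested. The other 3, Mogat1, Cidea and Pnpla3, were close to or at 0 counts and are described by their counts. RNA was prepared from whole liver of 16-week-old mice on normal chow that shared cages, and 12 poly(A) libraries were sequenced. Wild type mice were 129S1/SvImJ and knockout mice were 129/Sv-Cyp2e1tm1Gonz/J, a line with a targeted Cyp2e1 allele. Both sexes of both lines gave 3 biological replicates each, or 4 groups, and nothing in the labels says more about how the replicates were obtained. The groups share the 129 background, the age and the diet, but wild type and knockout are different lines, so an effect of the allele and a difference between the lines cannot be told apart. The sources used here do not give the time of day or the feeding state at collection.

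In the liver, sugar carbon leaves mitochondria as citrate and is turned into cytosolic acetyl-CoA and malonyl-CoA, from which fatty acid synthase builds palmitate with NADPH as reductant. Elongases and desaturases lengthen and desaturate the chain, acyl-CoA synthetases activate it, and a series of acyltransferases and phosphatases joins it to glycerol to give triglyceride. Triglyceride is held in lipid droplets under a coat of perilipins, released by lipases, or exported in very low density lipoprotein. The transcription factors SREBP-1 (Srebf1), which responds to insulin, and ChREBP (Mlxipl), which responds to carbohydrate, drive many of these genes after feeding.

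For Cyp2e1, the targeted gene, the knockout libraries lay far below the wild type libraries of either sex. It ran from 6209 to 7070 CPM in wild type females and from 230 to 322 CPM in knockout females, and from 10368 to 11473 CPM in wild type males and from 318 to 403 CPM in knockout males. CPM is the count scaled to the library size after TMM normalisation. Total counts per library ran from 15167730 to 25082532. Hepatocyte markers were abundant: 7 of 8 were found by symbol (Alb, Ttr, Apoa1, Serpina1c, Fgb, Hnf4a and Asgr1) and summed to 63842 to 107055 CPM per library. The adipocyte markers Lep, Cfd and Retn were at 0 in all 12 libraries, Adipoq did not exceed 0.193 CPM and Plin1 did not exceed 0.0925 CPM, and the 8 adipocyte markers summed to 16.4 to 31.8 CPM, most of it Fabp4 and Lipe. The skeletal muscle gene Acta1, chosen after its values were seen, was at 41.8 CPM in female knockout replicate 2 and at 0 in the other 11 libraries. The balance of long and short genes also varied among libraries. The length slope, the change of a library's log2 CPM deviation per doubling of gene length over 9366 genes, was -0.19 ± 0.04 (SD, n = 3) for wild type females against 0.19 ± 0.10 for knockout females. For males it was -0.02 ± 0.13 in the wild type and 0.03 ± 0.17 in the knockout. In a bulk sample, fewer cells of a type and less RNA per cell cannot be told apart.

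Between knockout and wild type females, 6 of the 29 tested genes changed. Thrsp, Elovl6, Me1 and Cidec fell, and Elovl2 and Scd2 rose. Calls required an adjusted p under 0.05 by edgeR's quasi-likelihood test, with Benjamini-Hochberg adjustment over all 14003 tested genes, and a call refers to this fit unless another tool or setting is named. In the same comparison 36.5% of all tested genes were called, 17.7% higher and 18.8% lower, a share that 6 of 29 does not reach. Every knockout library lay above every wild type library for 4 genes and below for 6, where 54.8% of all tested genes had groups that did not overlap. The median log2 fold change of the 29 genes was 0.08, against 0.05 over all tested genes, with 16 positive and 13 negative values. All 6 calls ended without female wild type replicate 2 and without female knockout replicate 2, when 0 genes of the set were called and 6 and 7 had an unadjusted p under 0.05. Calls over all tested genes fell in the same fits, from 5116 to 5 and to 4. The values themselves moved less, from -2.45 to -1.87 for Thrsp and from -1.61 to -1.20 for Elovl6 over the 12 fits that left out 1 library. The 6 calls also ended when each library's length slope was in the model, with 0 calls and 5 unadjusted in the set and 10 calls over all tested genes. In that fit Elovl6 was at -1.36 and Me1 at -1.35, about as far from 0 as without the slope or farther, while the other 4 genes lay nearer to 0. The slopes ran from -0.23 to -0.14 in wild type and from 0.08 to 0.29 in knockout females. Slope and genotype could thus not be fully told apart in females. With a length trend removed from each library instead, 7 genes of the set were called, 3 higher and 4 lower. Over all tested genes 30.2% were called in that setting, and of the 6 calls only that of Cidec ended.

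In males no gene of the set was called between knockout and wild type, by edgeR or by DESeq2, while edgeR without a filter on low counts called Mlxipl (0.97, adjusted p = 0.0184) and Scd1 (-1.47, adjusted p = 1.77e-05). The unfiltered fit called 101 of 25594 genes. Its estimate of spread and its adjustment drew on all of these genes, while the fold change of Scd1 was nearly the same with the filter (-1.46). Here and below, its p-values therefore do not compare directly with those of the filtered fit. With the filter 0.0571% of all tested genes (8 genes) were called between the male genotypes, and 3 genes of the set (Mlxipl, Scd1 and Acsl3) had an unadjusted p under 0.05. The knockout libraries lay above the wild type libraries for Mlxipl, Acly and Acsl3 and below them for Scd1 and Dgat2, while 9.63% of all tested genes did not overlap. The median log2 fold change of the 29 genes in males was 0.03, against -0.0028 over all tested genes. Over the mean of both sexes, Mlxipl, Elovl2 and Scd2 rose and Me1, Thrsp and Elovl6 fell, 6 of 29 genes where 15.1% of all tested genes were called, 7.78% higher and 7.29% lower. The count over both sexes was 0 without any one of female wild type replicates 1 and 2, female knockout replicate 2, male wild type replicates 1 and 3 or male knockout replicates 1 and 3, 1 without female knockout replicate 1 and 3 without female knockout replicate 3. Calls over all tested genes moved in the same fits, from 2111 to between 32 and 76 where the set had 0, and to 371 and 323 in the last 2. Without male knockout replicate 2 they rose to 5602, with 9 in the set, and without male wild type replicate 2 to 4506, with 8 in the set.

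By edgeR the knockout effect was not shown to differ between the sexes for any gene of the set, and 0% of all tested genes passed that test; without a filter on low counts 4 genes of the set (Elovl6, Thrsp, Pnpla2 and Scd1) and 1451 of 25594 genes passed. At an unadjusted p under 0.05, 7 genes of the set and 3145 of all tested genes differed. DESeq2 called 1 gene of the set, Elovl6 (1.36, adjusted p = 0.0186), and 83 genes in all. So a call in females beside no call in males does not by itself show a difference between the sexes.

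**Figure D1:**
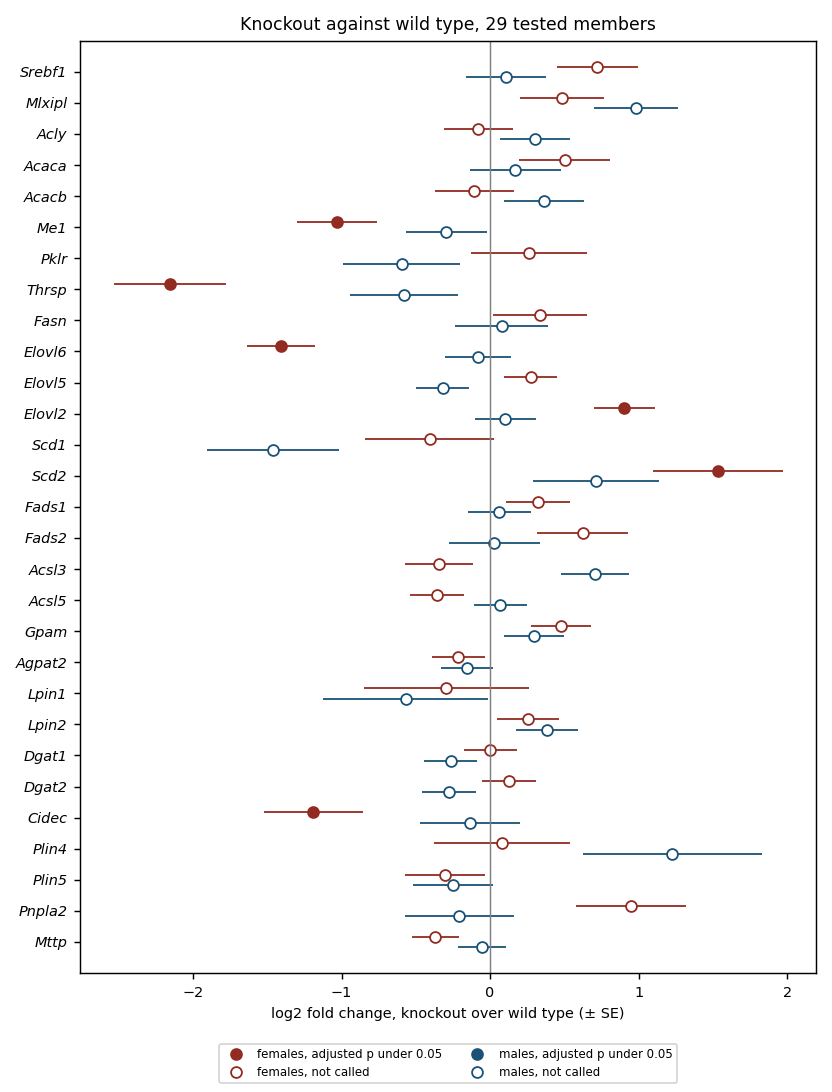
Log2 fold change of knockout over wild type (x axis, points with a bar of 1 standard error) for the 29 tested genes (y axis, ordered by step of the pathway), in females and in males, with filled points for genes called at an adjusted p under 0.05. Thrsp lies farthest to the left in females at -2.16 and Scd2 farthest to the right at 1.53, and no male point is filled.

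Both transcription factors had higher group means in the knockout, and Mlxipl rose over the mean of both sexes. Mlxipl (ENSMUSG00000005373, chromosome 5, 135118744 to 135167236, mm39), which encodes the carbohydrate response factor ChREBP, stood at 93.6, 95.7 and 184 CPM in wild type females and at 192, 209 and 120.4 CPM in knockout females. In wild type males it stood at 84.4, 68.3 and 57.4 CPM, and in knockout males at 119.6, 150.3 and 145 CPM. The female groups overlapped through wild type replicate 3 and knockout replicate 3, while all 3 knockout males lay above all 3 wild type males. The log2 fold change of Mlxipl was 0.73 ± 0.20 over both sexes (adjusted p = 0.038), 0.48 ± 0.28 in females (adjusted p = 0.186) and 0.98 ± 0.28 in males (adjusted p = 0.653). Its call over both sexes was lost without any one of female wild type replicates 1 and 2, female knockout replicates 1 and 2, male wild type replicates 1 and 3 or male knockout replicates 1 and 3, with values of 0.65 to 0.93 over all 12 fits that left out 1 library. It was also lost with the length slope in the model (adjusted p = 0.252), with a length trend removed (adjusted p = 0.0538) and with a replicate block (adjusted p = 0.0864), and DESeq2 made it (adjusted p = 0.00867).

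Srebf1 (ENSMUSG00000020538, chromosome 11, 60089915 to 60113407) encodes SREBP-1. It was at 412, 257 and 299.8 CPM in wild type females and at 407, 603 and 589.6 CPM in knockout females, so that replicate 1 of the wild type lay just above replicate 1 of the knockout. Wild type males had 470.5, 275 and 269 CPM and knockout males 446, 278 and 368 CPM, and these groups overlapped throughout. The female difference of Srebf1 was 0.72 ± 0.27 (adjusted p = 0.053, 0.0375 by DESeq2 and 0.0164 by edgeR with only the female groups) and the male difference 0.11 ± 0.27 (adjusted p = 1).

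The promoters of 5 start sites are shown because these genes had the largest falls in knockout females (Thrsp and Elovl6), encode the factor that rose over both sexes (Mlxipl, with 2 annotated starts) or kept a sex difference in the knockout under every alternative (Elovl5). Each runs from 250 bases before to 50 bases after a RefSeq start site on the GRCm38.p6 build, 5′ to 3′ on the gene's strand; gene positions elsewhere in the text are on mm39. Capitals mark matches, on either strand, to the E-box CACGTG bound by ChREBP with Mlx and by USF factors, to TCACNCCAC, a form of the sterol response element bound by SREBPs, and to the CCAAT box bound by NF-Y. No matches overlap in these windows.
Thrsp (chr7:97417501-97417800, minus strand): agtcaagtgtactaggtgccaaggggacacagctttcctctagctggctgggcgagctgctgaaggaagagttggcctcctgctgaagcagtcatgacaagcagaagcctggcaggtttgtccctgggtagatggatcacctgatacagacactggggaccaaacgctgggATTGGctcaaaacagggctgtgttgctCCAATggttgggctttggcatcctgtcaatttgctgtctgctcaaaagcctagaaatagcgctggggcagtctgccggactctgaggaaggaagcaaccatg
Elovl6 (chr3:129532136-129532435, plus strand): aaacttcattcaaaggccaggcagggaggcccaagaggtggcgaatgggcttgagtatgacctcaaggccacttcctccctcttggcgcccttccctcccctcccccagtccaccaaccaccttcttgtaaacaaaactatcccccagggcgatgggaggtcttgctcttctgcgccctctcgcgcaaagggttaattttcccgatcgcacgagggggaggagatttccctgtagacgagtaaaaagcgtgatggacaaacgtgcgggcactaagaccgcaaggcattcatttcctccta
Mlxipl start 1 (chr5:135106641-135106940, plus strand): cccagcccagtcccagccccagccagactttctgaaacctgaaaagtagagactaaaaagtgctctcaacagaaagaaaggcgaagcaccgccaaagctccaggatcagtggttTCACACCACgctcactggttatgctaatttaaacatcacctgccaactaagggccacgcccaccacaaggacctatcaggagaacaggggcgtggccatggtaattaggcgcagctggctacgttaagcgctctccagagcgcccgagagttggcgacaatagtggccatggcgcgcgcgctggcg
Mlxipl start 2 (chr5:135089640-135089939, plus strand): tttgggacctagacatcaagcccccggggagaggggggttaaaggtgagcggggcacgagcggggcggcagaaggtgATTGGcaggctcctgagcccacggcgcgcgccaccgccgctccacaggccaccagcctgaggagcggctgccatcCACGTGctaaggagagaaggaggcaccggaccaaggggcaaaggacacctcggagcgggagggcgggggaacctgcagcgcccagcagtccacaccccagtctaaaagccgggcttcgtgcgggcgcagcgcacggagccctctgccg
Elovl5 (chr9:77917115-77917414, plus strand): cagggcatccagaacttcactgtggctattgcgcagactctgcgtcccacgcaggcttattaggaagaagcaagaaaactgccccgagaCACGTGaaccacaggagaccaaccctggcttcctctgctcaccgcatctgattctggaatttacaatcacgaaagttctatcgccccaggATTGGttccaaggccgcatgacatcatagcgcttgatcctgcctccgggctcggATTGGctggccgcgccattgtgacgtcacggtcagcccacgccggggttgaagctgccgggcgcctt

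Thrsp had 2 CCAAT boxes in this window and Elovl6 had no match to the 3 motifs. Start 1 of Mlxipl held the sterol response element, start 2 held an E-box and a CCAAT box, and Elovl5 held an E-box and 2 CCAAT boxes. RefSeq promoters were matched for 26 of the 32 genes. The E-box was found in 3 of the 26 (Elovl5, Lpin2 and Mlxipl; 11.5%) against 8.09% of 27025 gene symbols, the sterol response element in 1 (3.85%) against 1.44%, and CCAAT in 17 (65.4%) against 41.1%. A gene counted as matched if any of its start sites matched, so genes with more annotated starts had more chances of a match. These shares were not corrected for the number of starts. A match describes letters only, and genes with and without a match were found among those that changed.

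Of the 6 genes that supply acetyl-CoA, malonyl-CoA and NADPH, 2 (Thrsp and Me1) fell in knockout females and 0 rose, where 36.5% of all tested genes were called. Thrsp (ENSMUSG00000035686, chromosome 7, 97062145 to 97066937) encodes Spot 14, a small protein linked to the control of acetyl-CoA carboxylase and induced by thyroid hormone and carbohydrate. Its levels were 2785, 2954 and 2428 CPM in wild type females and 343, 653 and 835 CPM in knockout females. Males had 2367, 1492 and 3022 CPM in the wild type and 1163, 2370.4 and 1064 CPM in the knockout. The 3 knockout females were the lowest of the 12 libraries, and the male groups overlapped through knockout replicate 2. In knockout females Thrsp fell by 2.16 ± 0.38 on the log2 scale (adjusted p = 0.0132), from a mean of 2722 ± 268 to 610.2 ± 249 CPM (SD, n = 3). Over both sexes it fell by 1.37 ± 0.26 (adjusted p = 0.0243). In males the value was -0.58 ± 0.36 (adjusted p = 1), and the difference between the sexes was 1.58 ± 0.51 (adjusted p = 0.204). With the length slope in the model the female value of Thrsp was -1.18 and was not called.

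Me1 (ENSMUSG00000032418, chromosome 9, 86463424 to 86578006) encodes cytosolic malic enzyme, a source of NADPH. It was at 280.0, 196 and 149.8 CPM in wild type females and at 71.7, 110.3 and 124 CPM in knockout females. Wild type males had 162, 99.8 and 113 CPM and knockout males 91.0, 97.5 and 117 CPM. The female groups were apart, with the lowest wild type library above the highest knockout library, and 3 of the 4 groups had means between 102 and 125 CPM, below that of wild type females (208 ± 66.1 CPM). Me1 fell by 1.03 ± 0.27 in knockout females (adjusted p = 0.0161). The male value was -0.29 ± 0.27 (adjusted p = 1), and the mean of both was -0.66 ± 0.19 (adjusted p = 0.0419). The female call was also lost without wild type replicate 1, the highest library, where the value was -0.76. With the length slope in the model the female value was -1.35 and was not called (adjusted p = 0.274).

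Neither acetyl-CoA carboxylase passed the test for the knockout with all libraries in the fit. Acaca, the cytosolic isoform whose malonyl-CoA feeds synthesis, was at 48.8, 27.5 and 22.8 CPM in wild type females and 37.3, 54.7 and 48.6 CPM in knockout females. Male libraries held 31.6, 27.2 and 18.5 CPM in the wild type and 30.6, 20.3 and 36.1 CPM in the knockout. Female and male groups each overlapped between genotypes, with 0.50 ± 0.30 (adjusted p = 0.204) and 0.17 ± 0.31 (adjusted p = 1). Without female wild type replicate 1 the female difference was 0.90 and passed (adjusted p = 0.0423). Acacb (ENSMUSG00000042010, chromosome 5, 114284596 to 114388822), the mitochondrial isoform whose malonyl-CoA restrains fatty acid oxidation, was at 85.2, 55.6 and 55.9 CPM in wild type females and at 48.6, 63.1 and 71.0 CPM in knockout females. In males it was at 19.0, 30.1 and 19.6 CPM in the wild type and at 27.1, 22.1 and 38.8 CPM in the knockout. All 6 male libraries lay below all 6 female libraries. The log2 difference of males from females was -1.52 ± 0.27 in wild type mice (adjusted p = 0.00464) and -1.05 ± 0.27 in knockout mice (adjusted p = 0.0368). The wild type call held in all 12 fits that left out 1 library, while the knockout call was lost without female knockout replicate 2 or 3, female wild type replicate 2 or 3, or male knockout replicate 1 or 2 (-1.31 to -0.89 over the 12 fits).

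Acly, which makes cytosolic acetyl-CoA from citrate, and Pklr, the liver pyruvate kinase, were not called by edgeR in any of the 6 comparisons with the filter on low counts. Without that filter Pklr was lower in knockout males than in knockout females (-1.01, adjusted p = 0.00185). Acly ran from 155 to 298 CPM over the 12 libraries and Pklr from 73.4 to 272 CPM.

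Fatty acid synthase itself did not pass in knockout females. Of the other 7 genes of chain building 3 changed there, where 36.5% of all tested genes were called: Elovl6 fell and Elovl2 and Scd2 rose. Fasn was at 549.5, 339 and 318 CPM in wild type females and 447, 633 and 441 CPM in knockout females. Males had 315, 180.1 and 197 CPM in the wild type and 241, 152 and 336 CPM in the knockout. The genotypes overlapped in both sexes, with 0.34 ± 0.31 in females (adjusted p = 0.411) and 0.08 ± 0.31 in males (adjusted p = 1). Males lay below females within each genotype without overlap, with log2 differences of -0.80 ± 0.32 (adjusted p = 0.167) and -1.06 ± 0.32 (adjusted p = 0.0748), and by edgeR neither passed. DESeq2 called the knockout difference (-1.04, adjusted p = 0.0229), and without a filter on low counts edgeR called both (-0.78, adjusted p = 0.0251, and -1.04, adjusted p = 0.000841). The wild type difference was also called with the length slope in the model (-1.15, adjusted p = 0.0211) and with a length trend removed (-1.02, adjusted p = 0.0493), and the knockout difference without male knockout replicate 3 (-1.37, adjusted p = 0.032).

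Elovl6 (ENSMUSG00000041220, chromosome 3, 129326004 to 129432144) encodes the elongase that extends palmitate to stearate. Female libraries held 128, 106 and 70.2 CPM in the wild type and 36.7, 36.0 and 42.2 CPM in the knockout. Wild type males had 38.7, 24.7 and 31.0 CPM and knockout males 32.3, 28.4 and 28.5 CPM. The 3 wild type females stood above the other 9 libraries, and the male genotypes overlapped. The knockout value of Elovl6 was -1.41 ± 0.23 in females (adjusted p = 0.0132) and -0.08 ± 0.23 in males (adjusted p = 1), with a mean of -0.74 ± 0.16 (adjusted p = 0.0285). Males differed from females by -1.69 ± 0.23 in wild type mice (adjusted p = 0.000498), a call held in all 20 alternative fits, and by -0.37 ± 0.22 in knockout mice (adjusted p = 0.346). The male minus the female knockout effect was 1.32 ± 0.32, which did not pass by edgeR (adjusted p = 0.204) and passed by DESeq2. Elovl6 overlaps the antisense lncRNA Gm35986, whose counts came to 7.27% of its own, and reads from the pair cannot be told apart if the counting ignored strand.

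Elovl2 (ENSMUSG00000021364, chromosome 13, 41335857 to 41373881) encodes an elongase of long polyunsaturated fatty acids on the way to docosahexaenoate. Wild type females had 353, 277 and 243 CPM and knockout females 499, 545 and 589 CPM. Wild type males had 429, 500.0 and 347 CPM and knockout males 503, 362 and 504 CPM. The knockout females lay above the wild type females without overlap, and the male genotypes overlapped. Elovl2 rose by 0.90 ± 0.21 in knockout females (adjusted p = 0.014). Its male value was 0.10 ± 0.20 (adjusted p = 1) and the mean of both sexes 0.50 ± 0.14 (adjusted p = 0.0415). With the length slope in the model the female value was 0.30 and was not called.

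Elovl5 (ENSMUSG00000032349, chromosome 9, 77824646 to 77891801), an elongase of shorter polyunsaturated chains, did not pass in either knockout comparison but was lower in knockout males than in knockout females. It was at 443, 405 and 366 CPM in wild type females and 546, 407 and 515 CPM in knockout females. Male libraries held 345, 263 and 326 CPM in the wild type and 280.0, 233 and 236 CPM in the knockout. Males lay below females without overlap in both genotypes. The difference was -0.97 ± 0.18 in knockout mice (adjusted p = 0.00585), called in all 20 alternative fits, and -0.38 ± 0.18 in wild type mice (adjusted p = 0.231).

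Scd1 (ENSMUSG00000037071, chromosome 19, 44382894 to 44396318) encodes the main stearoyl-CoA desaturase of liver, which makes oleate and palmitoleate. It was at 2262, 1195 and 1382 CPM in wild type females and 1074, 1132 and 1442 CPM in knockout females. Wild type males had 1852, 491 and 461 CPM and knockout males 310.4, 361 and 347 CPM. Replicate 1 of the wild type males stood apart from the other 2 males of its group and inside the female range, and the 3 knockout males were the lowest of the 12 libraries. Knockout males differed from knockout females by -1.84 ± 0.45 (adjusted p = 0.0296), a call lost without any one of these 6 libraries (values from -1.92 to -1.70). Wild type males differed from wild type females by -0.79 ± 0.44 (adjusted p = 0.302), and by -1.78 without male wild type replicate 1 (adjusted p = 0.00327). Between genotypes Scd1 gave -0.41 ± 0.44 in females (adjusted p = 0.475). It gave -1.46 ± 0.44 in males (adjusted p = 0.758, and 1.77e-05 without a filter on low counts) and a mean of -0.93 ± 0.31 (adjusted p = 0.0544). That mean was called by DESeq2 (-0.94, adjusted p = 0.0189), by edgeR without a filter on low counts (-0.94, adjusted p = 1.47e-05), without male wild type replicate 2 (-1.09, adjusted p = 0.0183) and without male knockout replicate 2 (-0.96, adjusted p = 0.0361).

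Scd2 (ENSMUSG00000025203, chromosome 19, 44282113 to 44295303), a desaturase that is low in adult liver, lies 87.6 kb from Scd1. Wild type females had 1.98, 1.27 and 1.80 CPM and knockout females 4.71, 5.55 and 4.51 CPM. Wild type males had 1.97, 4.69 and 1.30 CPM and knockout males 5.50, 2.31 and 5.17 CPM. All knockout females exceeded all wild type females, whereas the male groups overlapped, with wild type replicate 2 among the high and knockout replicate 2 among the low values. Scd2 rose by 1.53 ± 0.44 in knockout females (adjusted p = 0.0197). Its male value was 0.72 ± 0.42 (adjusted p = 1) and the mean of both sexes 1.12 ± 0.30 (adjusted p = 0.038). With the length slope in the model its female value turned to -0.030 (adjusted p = 0.995), and the call was also lost without wild type replicate 3. Scd1 and Scd2 transcripts share 145 stretches of 50 bases, 2.97% of those of Scd1 and 2.66% of those of Scd2, so a small part of the reads could fall to either gene. Fads1 and Fads2, the delta-5 and delta-6 desaturases of polyunsaturated fatty acids, were not called by edgeR with all 4 groups and the filter on low counts, and ran from 453 to 882 CPM and from 398 to 959.8 CPM. Fads2 was called higher in knockout females with only the female groups fitted (0.62, adjusted p = 0.0383) and without the filter (0.63, adjusted p = 0.0465).

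**Figure D2:**
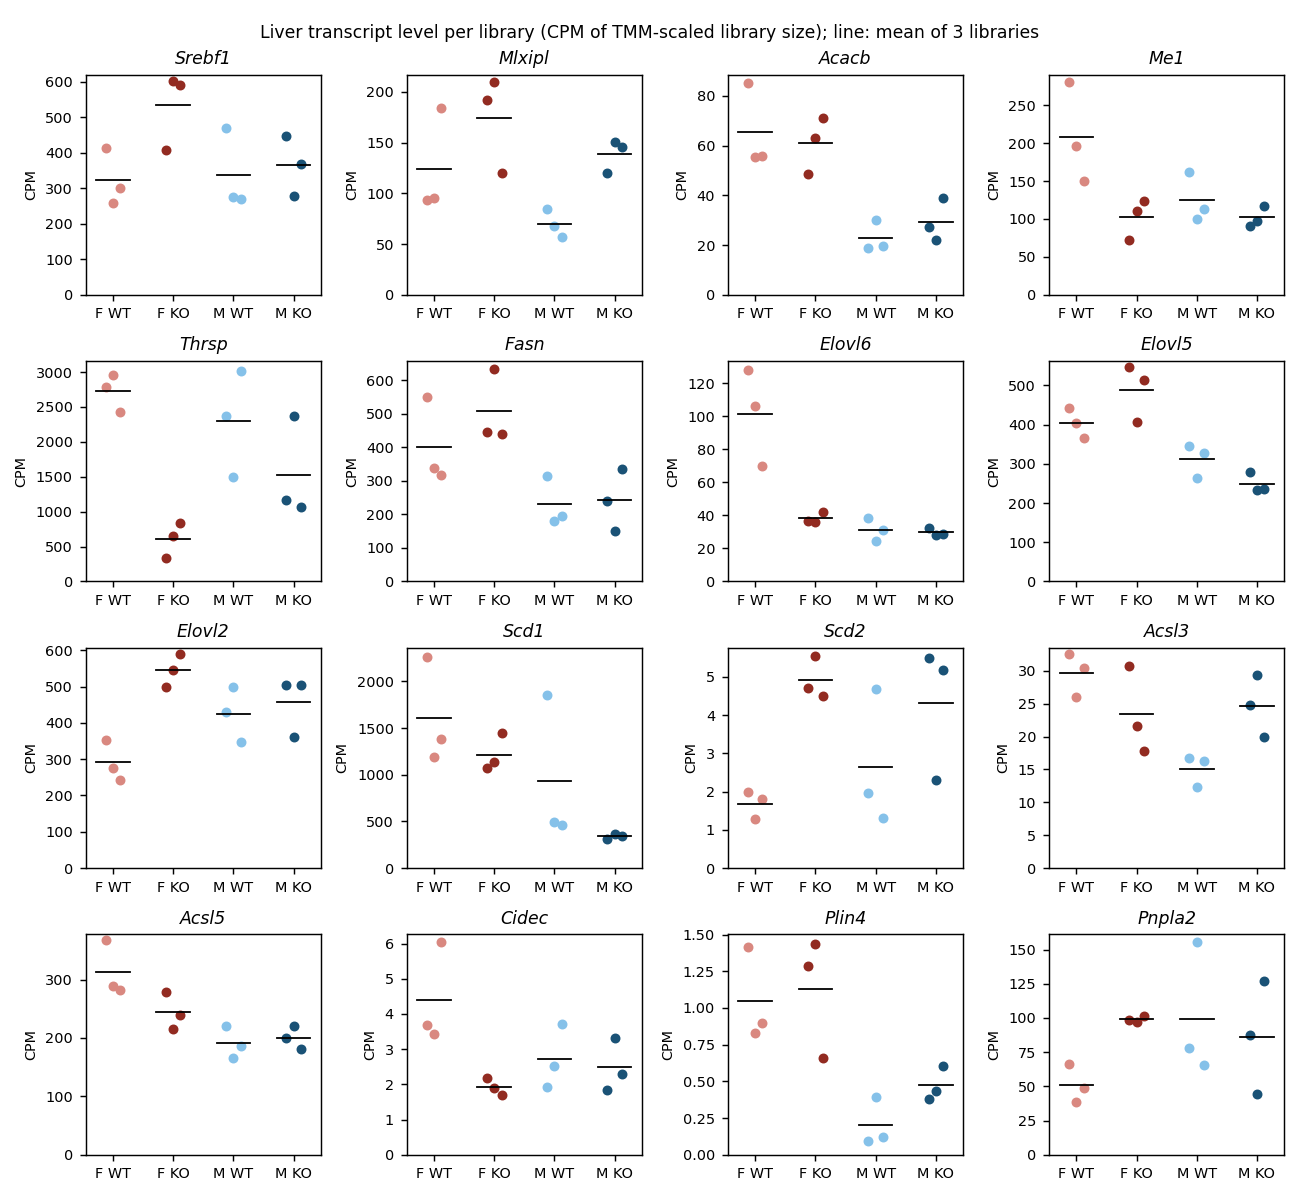
Level of 16 of the genes in each library (y axis, CPM from 0, a panel per gene; points are libraries and lines are means of 3) by sex (F, M) and genotype (WT, KO). Wild type females stand above the other groups for Elovl6, at 70.2 to 128 CPM, and knockout females below them for Thrsp, at 343 to 835 CPM.

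The acyl-CoA synthetases Acsl3 and Acsl5, which activate free fatty acids, were not called for the knockout and were lower in wild type males than in wild type females. Acsl3 (ENSMUSG00000032883, chromosome 1, 78635542 to 78685460) was at 32.5, 26.1 and 30.4 CPM in wild type females and 30.7, 21.6 and 17.8 CPM in knockout females. Male libraries held 16.8, 12.3 and 16.4 CPM in the wild type and 24.8, 29.4 and 19.98 CPM in the knockout. Wild type males were the lowest group and overlapped no other group. The sex difference was -0.97 ± 0.23 in wild type mice (adjusted p = 0.0287) and 0.08 in knockout mice (adjusted p = 0.856), and the genotype difference in males was 0.71 ± 0.23 (adjusted p = 0.843). The wild type call of Acsl3 was lost without any one of female wild type replicates 1 to 3 or male wild type replicates 1 and 2 (values from -1.07 to -0.84).

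Acsl5 (ENSMUSG00000024981, chromosome 19, 55240370 to 55286152) was at 367, 289 and 282 CPM in wild type females and 278, 215 and 240.0 CPM in knockout females. Male libraries held 221, 165 and 187 CPM in the wild type and 199, 221 and 181 CPM in the knockout. The wild type sexes did not overlap, and the mean of knockout females lay between theirs. The sex difference was -0.71 ± 0.18 in wild type mice (adjusted p = 0.0416), a call kept in 3 of the 12 fits that left out 1 library (female knockout replicate 1, male knockout replicate 2 or 3; values from -0.85 to -0.58). It was kept in 4 of 8 other settings and lost with the length slope in the model, without a filter on low counts, with only the wild type groups fitted and with a replicate block (adjusted p = 0.0693). The female genotype difference was -0.36 ± 0.18 (adjusted p = 0.133). Zdhhc6, on the opposite strand, overlaps Acsl5 and its counts came to 29.02% of those of Acsl5.

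Of the 6 tested genes of glycerolipid assembly, 0 were called by edgeR in the same fit in any of the 6 comparisons, and 1 had an unadjusted p under 0.05 between the female genotypes. Between the female genotypes 36.5% of all tested genes were called after adjustment, so at least that share had an unadjusted p under 0.05. DESeq2 called Gpam over both sexes (0.38, adjusted p = 0.0393), where it called 28.3% of all tested genes. With only the female groups fitted edgeR called Gpam in females (0.47, adjusted p = 0.0435) and 44.9% of all tested genes. Dgat2, which catalyses the last step to triglyceride from newly made fatty acids, was at 858, 668 and 715 CPM in wild type females and 653, 879 and 914 CPM in knockout females. Male libraries held 828, 932 and 939 CPM in the wild type and 821, 652 and 755 CPM in the knockout. Its female groups overlapped (0.13 ± 0.18, adjusted p = 0.597), and its knockout males lay just below the wild type males (-0.28 ± 0.18, adjusted p = 1). Dgat1, the other acyltransferase of that step, ran from 20.4 to 31.3 CPM over the 12 libraries with a female difference of 0.00 ± 0.18 (adjusted p = 0.994). Gpam, which starts the pathway by acylating glycerol-3-phosphate at mitochondria, ran from 102 to 219 CPM. Its 3 knockout females exceeded the 3 wild type females (0.48 ± 0.20, adjusted p = 0.0762). Agpat2, the next acyltransferase, ran from 139.7 to 247 CPM, and Lpin2, a phosphatidate phosphatase, from 126 to 244 CPM.

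Lpin1, a phosphatidate phosphatase that also acts as a transcriptional coactivator in fasting, had the widest spread within the male groups, and its male values were chosen for printing after they were seen. Other settings called it in different comparisons. With the length slope in the model it was lower in the knockout over both sexes (-1.61, adjusted p = 0.0397). In that fit it was also higher in knockout males than in knockout females (1.33, adjusted p = 0.0228). Without a filter on low counts it was higher in wild type males than in wild type females (0.82, adjusted p = 0.0296). It was at 68.2, 263 and 63.1 CPM in wild type males and 54.7, 48.4 and 163 CPM in knockout males, so that 1 library of each group stood above the rest. Mogat1, which acylates monoacylglycerol, was near 0: the 3 libraries of a group together held 21 counts in wild type and 11 in knockout females, and 16 in wild type and 4 in knockout males. The ratio of knockout to wild type was 0.384 in females (95% exact counting interval 0.167 to 0.834) and 0.257 in males (0.0626 to 0.798), intervals that cover counting error only and not the spread between mice.

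Among the droplet genes, Cidec fell in knockout females and Plin4 was lower in wild type males than in wild type females. Cidec (ENSMUSG00000030278, chromosome 6, 113401595 to 113412721), which promotes the transfer of lipid between droplets, was at 3.68, 3.44 and 6.04 CPM in wild type females and 2.18, 1.90 and 1.69 CPM in knockout females. Males had 1.92, 2.51 and 3.72 CPM in the wild type and 1.83, 3.33 and 2.28 CPM in the knockout. The female groups did not overlap and the male groups did. Cidec fell by 1.19 ± 0.33 in females (adjusted p = 0.0184). Its male value was -0.13 ± 0.34 (adjusted p = 1) and the mean of both sexes -0.66 ± 0.24 (adjusted p = 0.0637, and 0.0355 by DESeq2). The female value was -0.50 and not called with the length slope in the model, and the call was also lost without knockout replicate 3 or wild type replicate 3 and with a length trend removed from each library.

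Plin4 (ENSMUSG00000002831, chromosome 17, 56407591 to 56416803) and Plin5 lie 1.80 kb apart and encode droplet coat proteins. Plin4 had 30, 13 and 14 counts in wild type and 29, 31 and 18 in knockout females, against 2, 7 and 2 in wild type and 7, 6 and 13 in knockout males. Males lay lower without overlap in both genotypes, with log2 differences of -2.37 ± 0.56 in wild type mice (adjusted p = 0.0288) and -1.22 ± 0.49 in knockout mice (adjusted p = 0.173). The wild type call was lost without any one of female wild type replicates 1 to 3 or male wild type replicates 1 and 3 (values from -3.23 to -2.02). Hdgfl2, on the opposite strand, overlaps Plin4 and held 5220 counts over the 12 libraries against 172 for Plin4, so the level of Plin4 is uncertain if the counting ignored strand. Plin5, which ties droplets to mitochondria, was at 46.5, 24.8 and 19.7 CPM in wild type females and 26.7, 23.2 and 24.1 CPM in knockout females. Male libraries held 27.2, 32.9 and 21.9 CPM in the wild type and 21.3, 25.0 and 22.6 CPM in the knockout. Its groups overlapped in every comparison, with -0.30 ± 0.27 in females (adjusted p = 0.388). Cidea, a relative of Cidec, held 4 counts over the 12 libraries.

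Of the genes that release or export triglyceride, 0 of the 2 tested were called by edgeR in the fit described above, and both had an unadjusted p under 0.05 between the female genotypes. In that comparison 36.5% of all tested genes were called by edgeR after adjustment, so at least that share had an unadjusted p under 0.05. DESeq2 called both there, Pnpla2 at an adjusted p = 0.0405 and Mttp at an adjusted p = 0.0302, where it called 42.2% of all tested genes. Pnpla2, the adipose triglyceride lipase, whose values were chosen for printing after they were seen, was at 66.7, 38.9 and 48.5 CPM in wild type females and 98.7, 96.8 and 102 CPM in knockout females. Its female groups did not overlap and the difference was 0.95 ± 0.37 (adjusted p = 0.0598). By edgeR it was called with only the female groups (0.94, adjusted p = 0.00181), without a filter on low counts (0.95, adjusted p = 0.00134), with a length trend removed (1.11, adjusted p = 0.0417) and without any one of male knockout replicates 2 and 3 or male wild type replicates 2 and 3. Pnpla2 lies 680 kb from Cyp2e1 on chromosome 7, and the part of linked sequence in this difference was not tested. In males it was at 78.0, 155 and 65.5 CPM in the wild type and 87.6, 44.2 and 127 CPM in the knockout, overlapping groups with a wide spread. Mttp, which loads triglyceride onto apolipoprotein B, ran from 159 to 262 CPM, and its knockout females lay below the wild type females (-0.37 ± 0.16, adjusted p = 0.0865). With a length trend removed the difference of Mttp was -0.63 and was called (adjusted p = 0.0181).

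Pnpla3, a lipase of hepatocyte droplets, had nearly all of its counts in female libraries. Female libraries held 21, 5 and 6 counts in the wild type and 13, 7 and 13 in the knockout, and male libraries 1, 0 and 0 in the wild type and 0, 0 and 1 in the knockout. Every female library lay above every male library. The ratio of female to male level was 33.8 in wild type mice (95% exact counting interval 5.65 to 1377) and 24.9 in knockout mice (4.16 to 1012), while knockout females stood at 0.757 of wild type females (0.451 to 1.27). Pnpla3 was too low to enter the test with the filter on low counts. Without that filter edgeR called it lower in males, at -4.57 in wild type mice (adjusted p = 0.00379) and -4.22 in knockout mice (adjusted p = 0.00947). That fit called 1700 and 1694 of 25594 genes in these comparisons.

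Between the sexes, every call by edgeR in the fit described above was a lower level in males. In wild type mice 0 genes were higher and 5 lower (Acacb, Elovl6, Acsl3, Acsl5 and Plin4) where 4.49% of all tested genes were called and 2.39% were lower in males. In knockout mice 0 were higher and 3 lower (Acacb, Elovl5 and Scd1) where 5.4% of all tested genes were called and 2.45% were lower. Male and female libraries did not overlap for 9 of the 29 genes in wild type mice, 8 of them lower in males, against 26.9% of all tested genes. In knockout mice it was 9 as well, 8 lower and Thrsp higher (1.33 ± 0.37, adjusted p = 0.0541), against 28.1%. Thrsp was called higher in knockout males by DESeq2 (1.36, adjusted p = 0.00761), by edgeR without a filter on low counts (1.33, adjusted p = 8.5e-06) and in 3 fits that left out 1 library (male knockout replicate 3 or male wild type replicate 2 or 3). In wild type males Lpin1 (0.82, adjusted p = 0.0296) and Pnpla2 (0.98, adjusted p = 0.00285) were called higher without a filter on low counts. The median log2 difference of the 29 genes was -0.27 in wild type and -0.20 in knockout mice, while the medians over all tested genes were -0.0054 and -0.04. The median of the set stayed below 0 in every alternative, from -0.39 to -0.07 in wild type and from -0.32 to -0.11 in knockout mice.

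**Figure D3:**
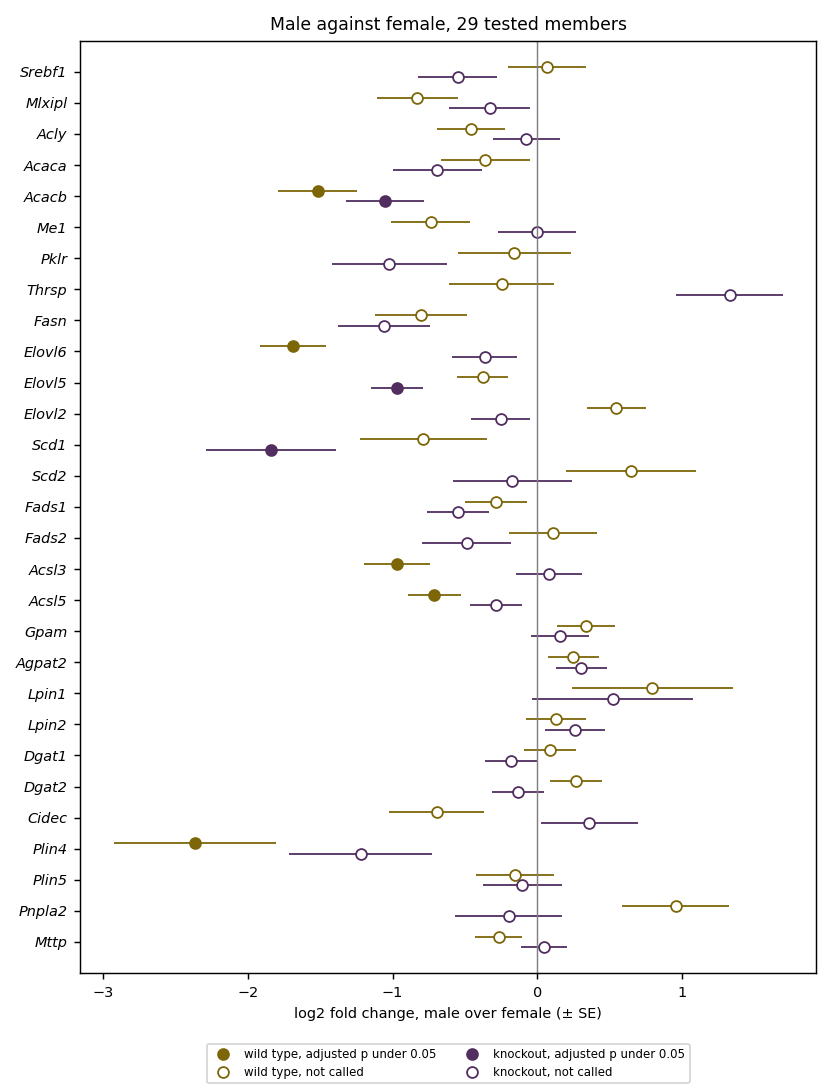
Log2 difference of male over female level (x axis, points with a bar of 1 standard error) for the 29 tested genes (y axis), in wild type and in knockout mice, with filled points for called genes. All 8 filled points lie to the left of 0, and Thrsp in the knockout is the point farthest to the right, at 1.33.

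**Figure D4:**
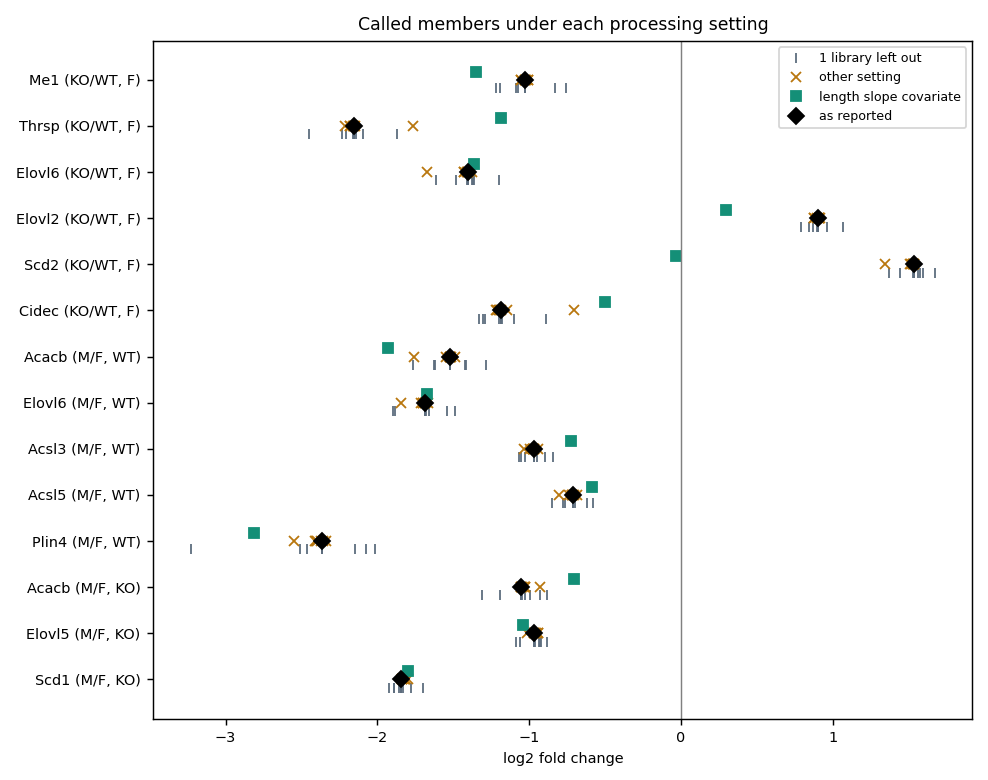
Log2 fold change (x axis) of each call in the female knockout comparison and in the sex comparisons (y axis), as reported (diamond), with each library left out (ticks), with the length slope of each library in the model (square) and under the other settings (crosses). The squares of Scd2 (-0.030), Elovl2 (0.30), Cidec (-0.50) and Thrsp (-1.18) lie nearer to 0 than the diamonds in the female comparison, that of Elovl6 (-1.36) lies close to its diamond and that of Me1 (-1.35) farther from 0, and no point of the sex comparisons crosses 0.

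Levels of different genes were compared per kilobase of gene model only. By mean CPM per kilobase Thrsp was the highest of the 32 in each group, at 1244 in wild type and 279 in knockout females, and at 1048 in wild type and 700.1 in knockout males. In knockout females Dgat2, at 264, and Scd1, at 249, stood next to it. In wild type females Scd1 was at 330 and Dgat2 at 242. In males Scd1 was at 191 in the wild type and 69.4 in the knockout, and Dgat2 at 292 and 241.

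**Figure D5:**
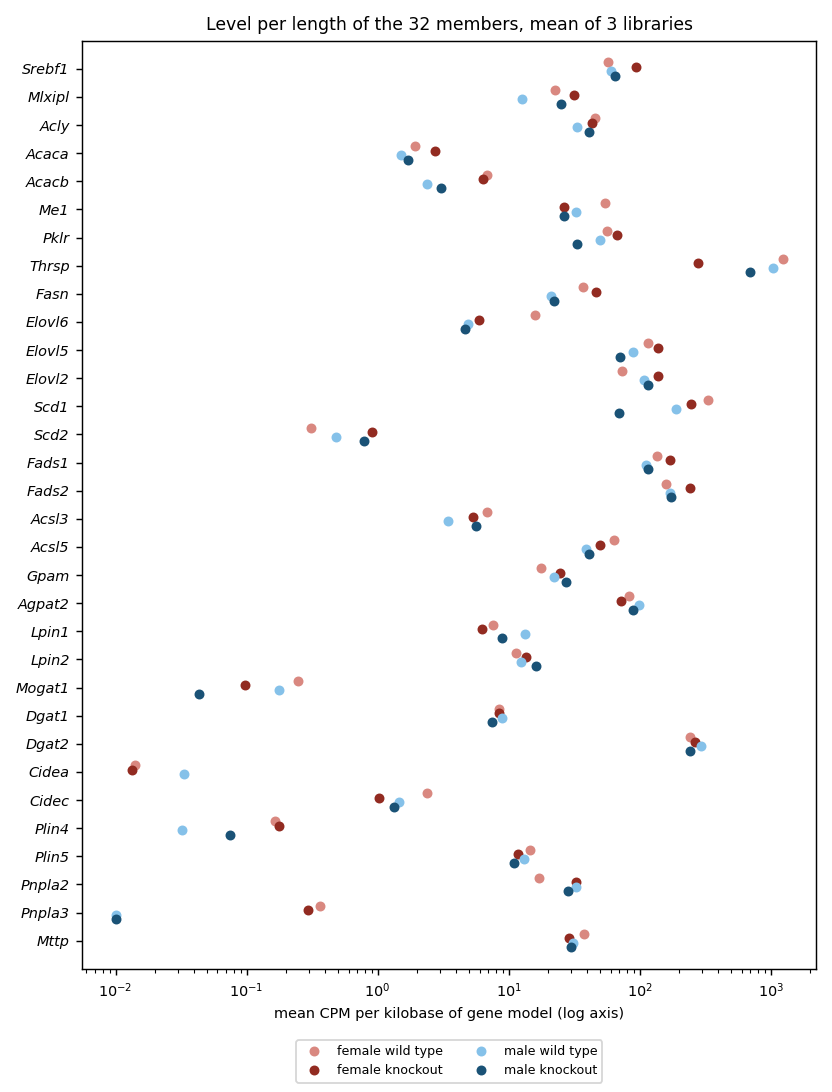
Mean CPM per kilobase of gene length (x axis, log axis) of each gene (y axis) in the 4 groups. Thrsp is the highest gene in each group, and its value of 279 in knockout females lies close to Dgat2 at 264.

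Other genes of the same steps were called in both directions in knockout females, where 36.5% of all tested genes were called, so a list with about that share of calls does not stand apart. Of 20 tested regulators 10 rose and 2 fell, with the insulin receptor substrate Irs2 (1.79 ± 0.33, adjusted p = 0.0132) and the SREBP coactivator Ppargc1b (2.71 ± 0.53, adjusted p = 0.0139) higher. Mlx, the partner that ChREBP needs to bind DNA, was lower (-1.25 ± 0.28, adjusted p = 0.014), whereas Mlxipl was not called in females. Of 14 genes of carbon and NADPH supply 1 rose and 4 fell, a share near that of all tested genes, the falls including fructokinase Khk (-0.98 ± 0.21, adjusted p = 0.0139) and the NADPH source Idh1 (-0.91 ± 0.19, adjusted p = 0.0139). These moved the same way as Me1. Elongation and desaturation genes outside the set numbered 10 tested, 3 higher and 3 lower, and assembly genes 7 tested, 2 higher and 1 lower. Of 16 tested genes of droplets and triglyceride turnover 3 rose and 4 fell, with Abhd5, the activator of the Pnpla2 lipase, lower (-1.05 ± 0.21, adjusted p = 0.0139) and hormone-sensitive lipase Lipe higher (1.13, adjusted p = 0.0202). In males 0 genes of these 5 lists were called by edgeR, and 1 gene of carbon supply and 3 of droplets and turnover had an unadjusted p under 0.05.

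Between the sexes the pathway genes outside the set were called in both directions. Elovl3, an elongase of saturated chains, was far higher in males, by 4.47 ± 0.36 in wild type mice (adjusted p = 3.75e-06) and 5.22 ± 0.38 in knockout mice (adjusted p = 1.24e-06), opposite in direction to Elovl6. Its libraries ran from 1.29 to 3.57 CPM in females and from 43.9 to 102 CPM in males. The lipoprotein lipidation gene Tm6sf2 was lower in males, with -1.80 ± 0.30 in wild type (adjusted p = 0.00234) and -1.98 in knockout mice (adjusted p = 0.0012), and the droplet gene Fitm1 was higher, with 2.15 (adjusted p = 0.0112) and 2.44 (adjusted p = 0.00708). Pparg, a driver of hepatic lipid storage, was lower in knockout males (-1.26 ± 0.25, adjusted p = 0.00822).

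Genes of the clock and of feeding state were also measured in these libraries. Nr1d1, a clock repressor, was at 18.2, 21.3 and 20.4 CPM in wild type females and 144, 178 and 126 CPM in knockout females (2.90 ± 0.45, adjusted p = 0.0132), and 6 of 12 tested clock genes rose and 1 fell, where 36.5% of all tested genes were called. Of 9 tested genes of the fasting response 3 rose and 1 fell, close to the same 36.5%, with Cpt1a, which admits fatty acids to mitochondria, at 172, 114 and 134 CPM in wild type females and 279, 362 and 404 CPM in knockout females (1.31 ± 0.33, adjusted p = 0.015). In males Cpt1a was high in the same libraries as Lpin1 and Pnpla2, at 416 CPM in wild type replicate 2 and 341 CPM in knockout replicate 3. This match was picked after the values were seen. The deviations of these libraries from their group means correlated at 0.78 over 9366 genes, so the match is not particular to these genes. Their length slopes, 0.11 and 0.17, were the highest of their groups. The summed macrophage markers (8 of 8 found) ran from 118.6 to 174 CPM in wild type females and from 169 to 199.7 CPM in knockout females, and the summed endothelial markers (7 of 7) from 132 to 154 CPM and from 184.7 to 237 CPM. The summed cholangiocyte markers (5 of 5) were lower in knockout females, at 22.2 to 34.0 CPM against 42.2 to 49.8 CPM in wild type females. In males they ran from 35.3 to 43.2 CPM in the wild type and from 35.0 to 42.5 CPM in the knockout. The summed stellate cell markers (8 of 8) were higher in knockout males, at 245 to 260.1 CPM against 175 to 234 CPM in wild type males, and ran from 285 to 329 CPM in wild type and from 246 to 302 CPM in knockout females. The part of the clock, of feeding state, of cell makeup and of the length slope in the differences of the set was not tested beyond the fits with a length term.

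Within groups the 29 genes did not scatter evenly over the libraries. Wild type female replicate 1 was the highest of its group for 23 of the 29 genes, and knockout male replicate 2 was the lowest of its group for 18. These ranks were not counted over all tested genes, so the skew is not shown to be particular to the set. The median coefficient of variation of the 29 genes was 24.8% in wild type and 16.3% in knockout females, against 18.2% and 17.2% over all tested genes. It was 22.2% in wild type and 19.0% in knockout males, against 24.2% and 26.3%.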

How the data were processed

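Poly(A) RNA from 12 mouse livers was sequenced. The authors deposited 1 table of raw counts per gene for all libraries, with mm39 gene positions and lengths, and library numbers in the labels tied every count column to its sample (0 columns were left unused). HISAT2 2.0.5, DESeq2 and the mm39 build are named in the submitters' processing notes with no role given, and the sources used here give neither the counting program nor its strand setting.

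Genes were kept by edgeR's filterByExpr on the 4 groups, which left 14003 of 56748 genes with 99.9% of the counts. Counts were tested with edgeR 4.0.16 (R 4.3.3, limma 3.58.1) by the quasi-likelihood F test after TMM scaling, with 1 mean per group over all 12 libraries (8 residual degrees of freedom, biological coefficient of variation 25.9%). P-values were adjusted by Benjamini-Hochberg over the 14003 genes within each of 6 comparisons: the knockout effect within each sex, its mean and its difference over the sexes, and the sex difference within each genotype. Standard errors were derived from the fold change and the F statistic, and are approximate. The fit was also run on simulated counts drawn independently for each gene. These held no length slope and no library deviation shared among genes, so that run does not bear on such features. Between libraries of a group, chi-square divided by its degrees of freedom was 16.1 to 151, where sampling alone gives about 1, and each library was counted. P-values set a difference between groups against the spread between libraries, pooled over the 4 groups and moderated across genes.

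The alternatives were RLE scaling, DESeq2 1.42.0, no filter on low counts, a CPM of at least 1 in 3 libraries, a replicate block, each library's length slope as a covariate, a length trend removed from each library, only the groups compared, and each library left out in turn. Values for all libraries are printed for each of the 32 genes called in at least 1 comparison and for Srebf1, Mlxipl, Fasn, Acaca, Scd1, Thrsp, Dgat2, Cidec, Plin5 and Pnpla3. Of other pathway genes at most the 3 of smallest adjusted p per list and comparison are named, and 1 result that this takes is not reported here. The 32 genes and the lists were chosen with earlier results of these data known. Intervals on counts cover counting error only. Promoters are RefSeq sequences on GRCm38.p6, and no coordinates were converted between builds.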

Additional observations from a re-analysis of the deposited data

How the results depend on the processing

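The directions of all calls in the set held in every alternative in which they were refitted, with 1 exception: Scd2 between knockout and wild type females turned to -0.030 (adjusted p = 0.995) with the length slope of each library in the model. With that covariate the calls in the set were 0 in females and 1 over both sexes. That 1 was Lpin1, which was not called without the covariate. Over all genes 10 were called in females, where 5116 were called without it. Over both sexes 21 of all genes were called, where 2111 were called without it. With a length trend removed from each library the calls in the set were 7 in females and 5 over both sexes. Over all genes 4233 were called in females and 1528 over both sexes in that setting. With only the female groups fitted 10 genes of the set were called, 6 higher and 4 lower, where 6283 of all genes (44.9%) were called. With only the groups compared the calls between sexes were 3 in wild type mice, where 586 of all genes were called. DESeq2 called 1 gene for the difference between sexes and 5 between the sexes in knockout mice, 1 of them (Thrsp) higher in males. Over all genes it called 83 and 1395 in these comparisons. Without a filter on low counts the calls were 2 in males, 4 for the difference, 11 between the sexes in wild type mice (2 higher in males) and 7 in knockout mice (1 higher). Over all genes that fit called 101 in males, 1451 for the difference, where 0 were called with the filter, 1700 between the sexes in wild type mice and 1694 in knockout mice. With 1 library left out the calls ranged from 0 to 9 in females, from 0 to 0 in males, from 0 to 9 over both sexes, from 0 to 0 for the difference, from 2 to 5 between the sexes in wild type mice and from 1 to 4 in knockout mice. Over all genes these fits called from 4 to 6023 in females, from 5 to 18 in males and from 32 to 5602 over both sexes. Between the sexes they called from 380 to 1129 of all genes in wild type mice and from 441 to 948 in knockout mice. Pairing by replicate number was not seen: 4 of 18 same-numbered pairs of groups correlated above 0.1. A library correlated best with its own number in 6 of 36 cases. Differently numbered libraries correlated from -0.55 to 0.79. Such shared variation could hide a pairing, so this check does not exclude it. With a replicate block the calls in the set were 6 in females, 0 over both sexes, 2 between the sexes in wild type mice and 2 in knockout mice. Over all genes that setting called 3365, 23, 415 and 507 in the same comparisons. The cause of these changes was not tested. Depth limits the genes near 0 counts, Mogat1, Cidea and Pnpla3, which no setting with a filter tested, and Plin4, with 11 counts in wild type males.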
